A study of Homo sapiens with 4 samples.

Results

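The TRiC subunits are the 8 genes TCP1, CCT2, CCT3, CCT4, CCT5, CCT6A, CCT7 and CCT8, which encode the chaperonin containing TCP1. They were taken by gene symbol and make up 8 of the 60609 gene identifiers measured. Their mRNA was compared between CCRF-CEM/HA-AMPKa2 cells kept for 24 hours without glucose (No glucose, 2 libraries) and the same cells in control medium (Ctrl, 2 libraries). CCRF-CEM is an established human T cell acute lymphoblastic leukaemia line, and both groups are the same derivative, which carries an HA-tagged AMPK alpha 2 subunit, so the control cells carry it too. Both groups were grown in RPMI with fetal bovine serum, and total RNA was sequenced. The labels describe the controls as untreated and give no agent besides the medium. The labels do not say that libraries of a group came from separate cultures. The p-values below rest on the spread between libraries alone, pooled in part over genes in the fits. That spread may be technical.

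TRiC is a pair of stacked rings, each built from 8 different but related subunits, which closes over a newly made protein and opens again as ATP is bound and hydrolysed. Actin and tubulin reach their native fold through it, and prefoldin, a smaller complex, hands them over. Because every ring position is taken by 1 particular subunit, a complete ring needs the product of all 8 genes. In yeast, the subunits that bind ATP more tightly sit side by side on one side of the ring, and they correspond to TCP1, CCT2, CCT4 and CCT5, while CCT3, CCT6A, CCT7 and CCT8 correspond to the other side.

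Gene totals came to 19035535 and 20081266 recovered reads in the No glucose libraries, named ONG_9 and ONG_10 in the table, against 96698709 and 24513840 in the Ctrl libraries, CTRL_7 and CTRL_8. The chi-square per degree of freedom between the libraries of a group was 6.66 for No glucose and 2.13 for Ctrl, over genes with at least 20 reads. All 10 T-lineage markers were measured above the filter, with PTCRA at most 7.02. Their summed normalized counts were 61834 and 64671 without glucose, against 67728 and 65439 in Ctrl. Of the 10, 2 were called higher and 3 lower, where 16.4% and 36.2% of all coding genes tested were. Myeloid markers summed to 33.4 and 54.7 without glucose and to 39.5 and 44.1 in Ctrl, with MPO and FCGR3A at 0 in all 4 libraries. Erythroid markers summed to 3.03 and 7.02 without glucose and to 4.81 and 5.35 in Ctrl, with HBB at 0. Adherent cell markers, nearly all from EPCAM, summed to 443 and 415 without glucose and to 491 and 551 in Ctrl. Of 3 tested, COL1A1 was called higher and EPCAM lower, where 16.4% and 36.2% of all coding genes tested were. COL1A1 had 7.58 and 25.3 without glucose, against 2.06 and 2.68 in Ctrl. Of 5 B cell markers 4 were tested and 3 were called lower, where 36.2% of all coding genes tested were, and the 5 summed to 523 and 536 without glucose and to 907 and 894 in Ctrl. Most of that sum was CD79A, and MS4A1 was at 0 in both No glucose libraries and at most 0.343 in Ctrl. The part of these markers in the results was not tested.

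Without glucose CCT8 mRNA fell by 33.0% and CCT5 mRNA fell by 59.1%, with the other 6 subunits in between. In none did the groups overlap, but the share of all genes without overlap is not given here. Genes that were not called, such as PFDN1, could also lack overlap. Every subunit passed the test, which was limma on log2(normalized count + 1) with Benjamini-Hochberg adjustment over 27486 genes and a threshold of 0.05. The median log2 fold change of the 8 was -0.95. Lower calls were common in these cells. They made up 20.7% of all genes tested, 36.2% of 14588 protein-coding genes and 54.2% of the 5990 protein-coding genes that averaged 1000 normalized counts or more, the range in which the subunits lie. The medians of those groups were 0.04, -0.14 and -0.24. Higher calls made up 14.4%, 16.4% and 18.2% of the same groups. By mean normalized count the subunits ranked from 174 (TCP1) to 630 (CCT6A) of the 27486 genes tested. They thus lie high among those 5990 genes, a group that is not matched to their level. With all libraries, 5695 genes were called lower and 3948 higher. Fewer were called with CTRL_7 or CTRL_8 left out, and the call of CCT8 then depended on how the tested genes were chosen. The subunit median was -0.948 without CTRL_7 and -0.946 without CTRL_8. In bulk RNA, fewer cells that express a gene and less of its RNA per cell cannot be told apart. Normalized counts are relative to the other genes of a library, so a fall is not shown to be one in absolute amount.

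**Figure D1:**
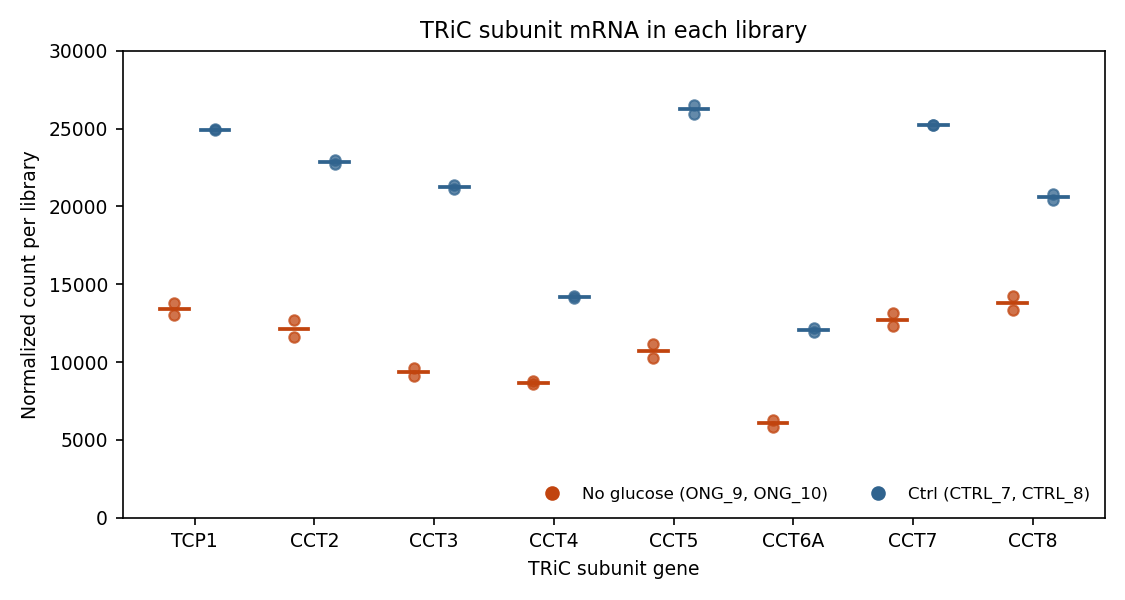
Normalized count of each TRiC subunit gene (vertical axis, from 0) in every library, with No glucose at the left and Ctrl at the right of each pair; each point is 1 library. The No glucose points lie between 5861 and 14251 and the Ctrl points between 11950 and 26545, and for each gene both No glucose points lie below both Ctrl points.

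Among the subunits that correspond to the tight ATP-binding side in yeast, CCT5 had the deepest fall of the 8. CCT5, the epsilon subunit, in which an inherited variant causes a sensory neuropathy, lies at chr5:10249921-10266412 on the plus strand (GRCh38, GENCODE 29; ENSG00000150753). It had 11179 and 10268 normalized counts without glucose, against 25948 and 26545 in Ctrl. The higher No glucose library was thus below the lower Ctrl library. The log2 fold change was -1.29 ± 0.05 (SE; 95% confidence interval -1.41 to -1.17; adjusted p = 3.5e-08). Of the 5990 coding genes at a mean of at least 1000, 1.9% had a lower fold change.

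CCT2, the beta subunit (chr12:69585334-69601570, plus strand; ENSG00000166226), had 12700 and 11586 normalized counts without glucose, against 22715 and 22983 in Ctrl. The gap between its No glucose libraries was the widest of the 8 relative to the mean (SD 6.49% of it). The difference between groups was larger than that spread, with a log2 fold change of -0.91 ± 0.05 (SE, adjusted p = 2.9e-07). TCP1, the alpha subunit and the gene after which the complex is named (chr6:159778498-159789749, minus strand; ENSG00000120438), had 13808 and 13043 without glucose, against 24905 and 24948 in Ctrl. Its Ctrl libraries were almost equal, and both No glucose libraries were far below them. The log2 fold change was -0.89 ± 0.05 (SE, adjusted p = 1.7e-07). CCT4, the delta subunit (chr2:61868089-61888804, minus strand; ENSG00000115484), had 8779 and 8591 without glucose, against 14265 and 14096 in Ctrl. This was a shallower fall with close libraries in both groups, -0.71 ± 0.05 on the log2 scale (SE, adjusted p = 7.5e-07).

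On the other side of the ring, CCT3 and CCT8 stood at opposite ends. CCT3, the gamma subunit (chr1:156308968-156367873, minus strand; ENSG00000163468), had 9636 and 9110 normalized counts without glucose, against 21409 and 21125 in Ctrl. Both No glucose libraries were thus at less than 1 in 2 of the Ctrl level. The log2 fold change was -1.18 ± 0.05 (SE, 95% confidence interval -1.29 to -1.07; adjusted p = 3.7e-08). CCT8, the theta subunit (chr21:29055805-29073797, minus strand; ENSG00000156261), had 14251 and 13356 without glucose, against 20780 and 20439 in Ctrl. It had the shallowest fall, -0.58 ± 0.05 (SE, 95% confidence interval -0.69 to -0.47; adjusted p = 4.5e-06), and 22.9% of the 5990 well-expressed coding genes had a lower fold change.

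CCT7, the eta subunit (chr2:73233420-73253021, plus strand; ENSG00000135624), had 13146 and 12296 normalized counts without glucose, against 25208 and 25243 in Ctrl. CCT6A, the zeta subunit (chr7:56051630-56063989, plus strand; ENSG00000146731), had 6307 and 5861 without glucose, against 12169 and 11950 in Ctrl. These genes fell by nearly the same factor, with log2 fold changes of -0.99 ± 0.05 for both (SE, adjusted p = 1.1e-07 for CCT7 and 1.8e-07 for CCT6A). The fold changes of the tight-binding side ran from -1.29 to -0.71 and those of the other side from -1.18 to -0.58, so the ranges overlapped.

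**Figure D2:**
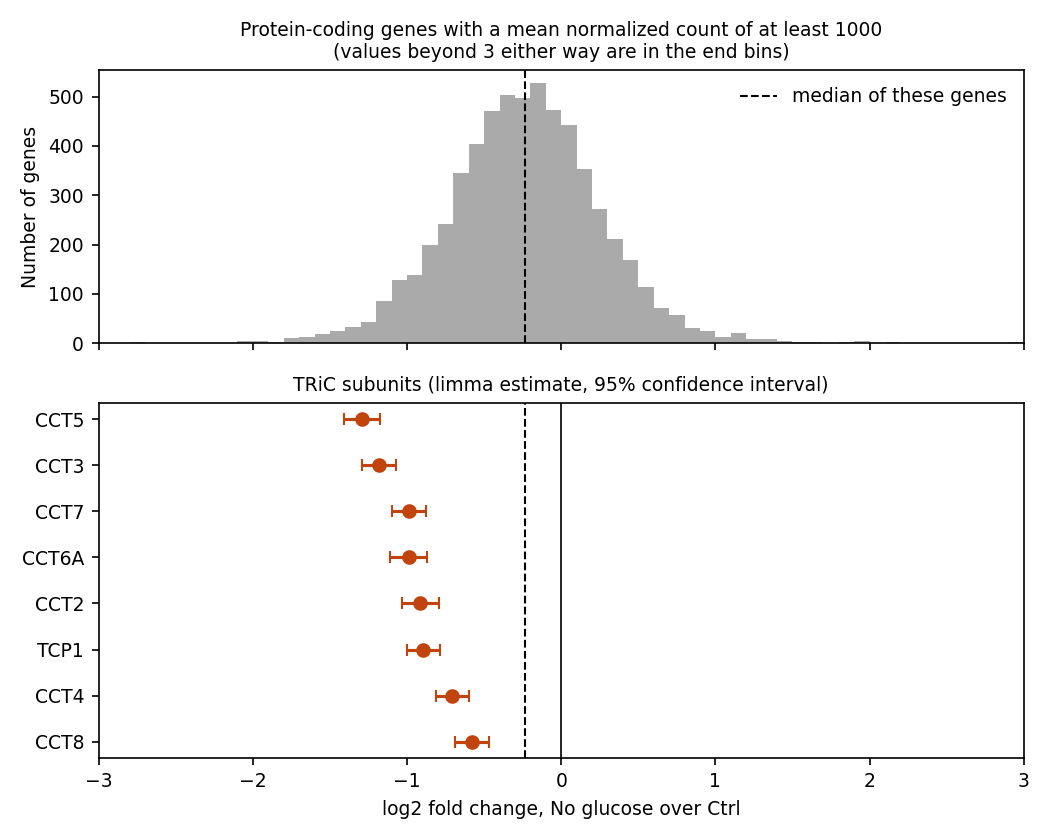
Log2 fold change, No glucose over Ctrl (horizontal axis). The upper panel counts the 5990 protein-coding genes that averaged 1000 normalized counts or more in bins, with their median of -0.24 as a dashed line; the lower panel gives each subunit's limma estimate with its 95% confidence interval. The 8 intervals lie left of the dashed line, from CCT5 at -1.29 to CCT8 at -0.58.

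In the fit the SE was 0.05 for each subunit. The fit draws a gene's spread towards that of other genes of similar level. This SE thus does not describe the gene's own libraries alone. Counting error was small, since the genes had 4160 to 9519 reads per No glucose library and 8934 to 75543 reads per Ctrl library. It leaves out the division of reads between similar genes. The SD between libraries was 1.53% to 6.49% of the mean without glucose and 0.0996% to 1.61% in Ctrl. In all 8 genes ONG_10 was below ONG_9. In the authors' deposited table the log2 fold changes ran from -1.29 for CCT5 to -0.58 for CCT8, with adjusted p from 7.6e-90 to 2.2e-20. Under scaling to library totals, the median of all genes tested moved from 0.04 to 0.23 and the subunit median from -0.95 to -0.74. Relative to the median of all genes, the subunit median was -0.99 in the main scaling and -0.97 under library totals. That scaling also turned the split of calls over all genes, from 59.1% lower and 40.9% higher to 38.5% lower and 61.5% higher.

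Summed, the 8 subunits took 0.311% and 0.299% of all recovered reads without glucose, against 0.504% and 0.510% in Ctrl, a ratio of 0.601. This share does not depend on the size factors. In normalized counts the sums were 89805 and 84112 without glucose, against 167400 and 167329 in Ctrl, a ratio of 0.520. An exact two-sided permutation test gave p = 0.333 for either sum, the smallest value that 2 against 2 libraries allow.

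The subunits did not fall by an equal factor, so the make-up of the pool differed between groups. CCT8 took 15.9% of the reads of the 8 subunits in both No glucose libraries, against 12.4% and 12.2% in Ctrl. CCT5 took 12.4% and 12.2% without glucose, against 15.5% and 15.9% in Ctrl. The mean share of CCT8 was thus 3.56 percentage points higher without glucose, and that of CCT5 changed by -3.35 points. CCT4 was the other subunit with a share at least 1 point higher, 9.78% and 10.2% without glucose, against 8.52% and 8.42% in Ctrl. CCT3 was lower, with 10.7% and 10.8% against 12.8% and 12.6% in Ctrl. TCP1, CCT2, CCT6A and CCT7 had mean shares within 1 point of those in Ctrl. The shares did not overlap between groups for any of the 8, but those of CCT2 nearly did, with 13.77% in ONG_10 against 13.74% in CTRL_8. Shares within a library are parts of the same total, so they are not independent.

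**Figure D3:**
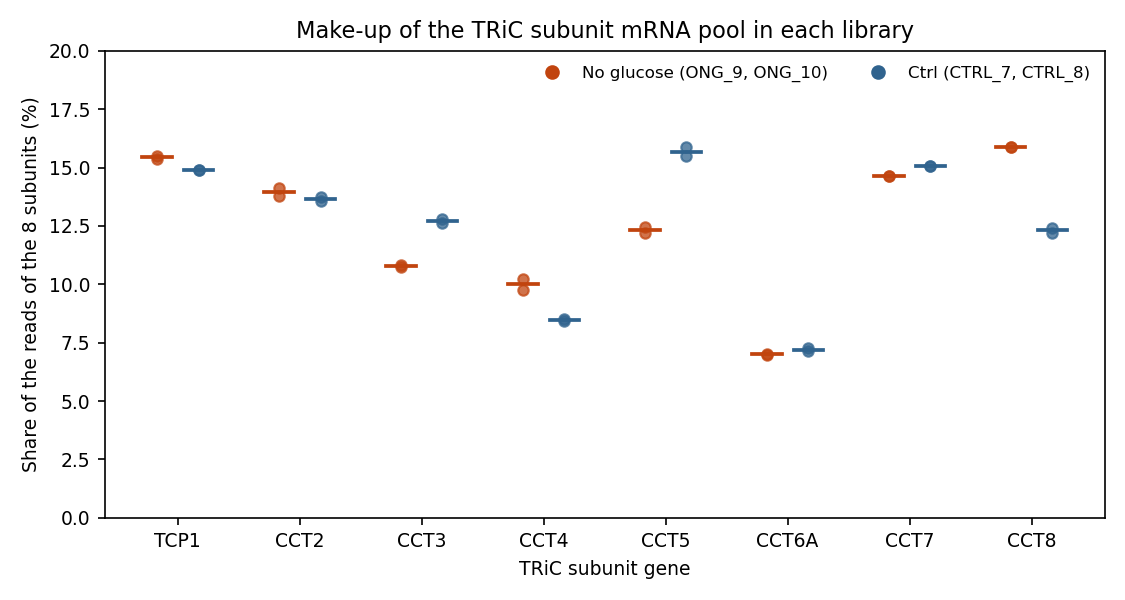
Share of the reads of the 8 subunits taken by each gene (vertical axis, percent, from 0) in every library, No glucose at the left and Ctrl at the right of each pair; each point is 1 library. CCT8 stands at 15.9% without glucose against 12.2% to 12.4% in Ctrl, and CCT5 at 12.2% to 12.4% without glucose against 15.5% to 15.9% in Ctrl.

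A ratio of 2 subunits within a library is free of any scaling between libraries. Of 28 such ratios, 26 differed between the group means, on the log2 scale, by more than the wider of the gaps between libraries of a group. The exceptions were TCP1 to CCT2 and CCT6A to CCT7. All 28 ratios are built from the same subunits, so they are not independent, and no like count for other genes is given. The ratio of CCT5 to CCT8 reads, a pair chosen after its values were seen, was 0.784 and 0.769 without glucose and 1.25 and 1.299 in Ctrl. The ratio was lower in both No glucose libraries than in either Ctrl library.

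Levels were compared between subunits only as normalized counts per kilobase of annotated exon. Without glucose the order from high to low was CCT8, CCT7, CCT4, CCT2, TCP1, CCT3, CCT5 and CCT6A, in which only the neighbours CCT2 and TCP1 overlapped between libraries. In Ctrl it was CCT7, CCT8, CCT3, CCT2, TCP1, CCT4, CCT5 and CCT6A, in which only CCT3 and CCT2 overlapped. CCT8 averaged 4132 ± 189 counts per kilobase without glucose and 6169 ± 72.3 in Ctrl (SD, n = 2 each). CCT7 averaged 3542 ± 167 without glucose, and its Ctrl libraries stood at 7019.7 and 7029.6. CCT6A was lowest in both groups, with 1560 ± 80.9 without glucose and 3091 ± 39.6 in Ctrl, and stayed lowest with the longest transcript or the coding length as the length. The level of the highest subunit was 2.65 times that of the lowest without glucose and 2.27 times in Ctrl. The rest of the order depended on the length used: by coding length CCT8 still led without glucose, while CCT5 led in Ctrl.

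Several subunit genes share a promoter region with a second gene read in the opposite direction. Measured between the outermost GENCODE 29 starts, a protein-coding gene starts within 1000 bases on the other strand of 5 of the 8. These 5 neighbours fell, with a median log2 fold change of -0.87, where 36.2% of protein-coding genes tested were called lower. The set depends on the start used: measured from the RefSeq starts of the 7 subunits that had one, an alternative chosen after seeing the data, 4 genes qualified and 3 of them fell. TSACC, 978 bases from the RefSeq start of CCT3, came in and was not called (0.07 ± 0.24, adjusted p = 0.86), while PRADC1, 1070 bases from that of CCT7, dropped out. MRPL18, a mitochondrial ribosomal protein gene, starts 63 bases from TCP1 and had 1688 and 1670 normalized counts without glucose, against 2482 and 2481 in Ctrl (-0.56 ± 0.06 on the log2 scale, SE; adjusted p = 2.2e-05). ATPSCKMT, a lysine methyltransferase of the ATP synthase, starts 24 bases from CCT5 and had 544 and 567 without glucose, against 1029 and 1007 in Ctrl. Its fold change was -0.87 ± 0.08, shallower than the -1.29 of CCT5.

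PSPH, which makes serine from phosphoserine, starts 26 bases from CCT6A and had 644 and 666 normalized counts without glucose, against 1267 and 1236 in Ctrl. The log2 fold changes of this pair were close, -0.93 ± 0.07 for PSPH and -0.99 for CCT6A. PRADC1, which encodes a secreted glycoprotein, starts 182 bases from CCT7 and had 355 and 363 without glucose, against 890 and 869 in Ctrl. With -1.29 ± 0.08 it was the only neighbour that fell more deeply than its subunit in point estimate; the differences within pairs were not tested. COMMD1, a regulator of endosomal sorting, starts 80 bases inside the 5′ end of CCT4 on the other strand and had 512 and 515 without glucose, against 784 and 761 in Ctrl (-0.59 ± 0.08). From the GENCODE 29 starts, CCT3 and CCT8 have no such coding neighbour, and the microRNA gene MIR3913-1, which starts near CCT2, was at 0 in all libraries.

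**Figure D4:**
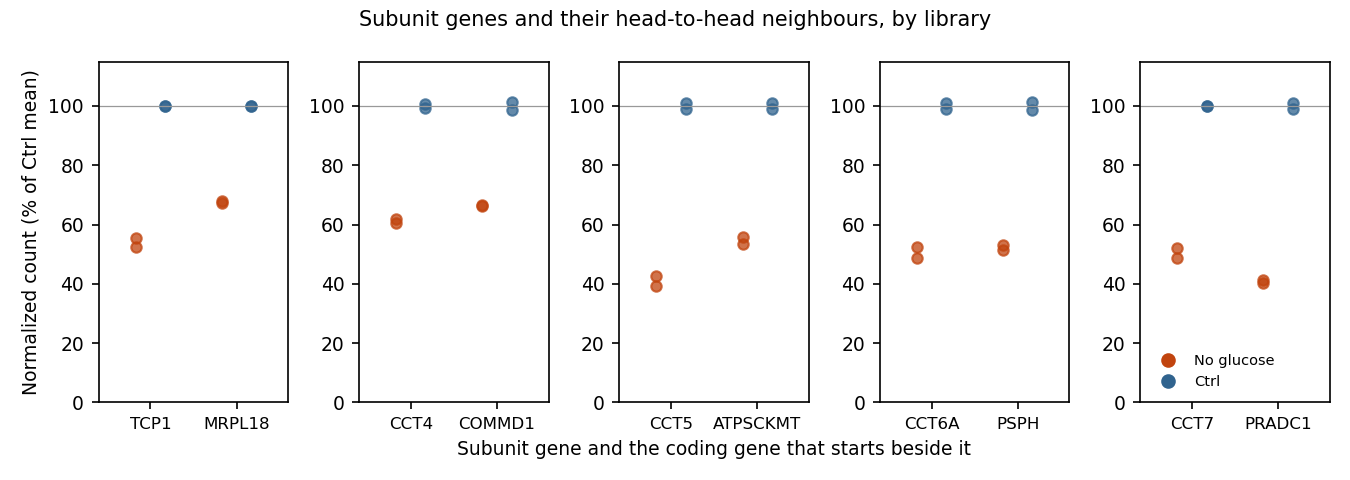
Normalized count of 5 subunit genes and of the protein-coding gene that starts beside each on the other strand, as percent of the gene's own Ctrl mean (vertical axis, from 0), with No glucose left of Ctrl; each point is 1 library. Each No glucose point lies below both Ctrl points of its gene, for the subunits and for MRPL18, COMMD1, ATPSCKMT, PSPH and PRADC1.

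The sequence between the GENCODE 29 starts of TCP1 and MRPL18 is shown as the short stretch that separates these genes. Its part in their falls was not tested. It is chr6:159789750-159789811, 62 bases, from RefSeq's promoter table on GRCh38.p14, on the minus strand, with an ETS core and a CCAAT box, each read on the opposite strand, in capitals.
TCP1 to MRPL18: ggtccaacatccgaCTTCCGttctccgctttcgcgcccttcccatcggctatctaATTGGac
The ETS core searched was CGGAAG, on both strands. The RefSeq windows ran from 250 bases before a start to 50 after it. At least 1 window held the core in 5 of the 7 subunits matched, namely TCP1, CCT2, CCT5, CCT7 and CCT8. The same was true of 22.6% of all 27305 genes with a window, expressed or not. A gene with several RefSeq starts, such as CCT2, had several windows. The window of CCT6A was not matched. The motifs were chosen after the windows had been seen, and a match describes letters only. The stretches around 1 ETS core in each of the other 4 genes are given with the core in capitals, on the strand of the gene. CCT2 is at chr12:69585434-69585459, CCT5 at chr5:10250287-10250304, CCT7 at chr2:73234235-73234260 and CCT8 at chr21:29073615-29073640. The CCT3, CCT5 and CCT7 windows lie inside the longest GENCODE 29 extent of those genes, downstream of its outermost start. By that extent, the CCT2 and CCT8 stretches shown also lie inside their genes.
CCT2: tgtggcgtcaCTTCCGgcttccttca
CCT5: cgCTTCCGtagcggtctc
CCT7: catagagtagCGGAAGtggtccgttc
CCT8: cctccgcggtCTTCCGagcggtcgcg
Heat shock factors read inverted repeats of GAA, searched here as GAANNTTC and TTCNNGAA, each of which reads the same on both strands. The first was found in TCP1 and CCT2 (8.21% of all genes) and the second in CCT4 (9.46% of all genes). These stretches are shown because heat shock genes changed in the same cells, with the repeat in capitals, at chr6:159789816-159789843, chr12:69585790-69585817 and chr2:61888607-61888628, on the strand of the gene. By the GENCODE 29 coordinates the TCP1 repeat lies inside MRPL18, and the CCT2 and CCT4 repeats lie inside their own genes. The CCT2 repeat comes from the window of another RefSeq start than the CCT2 ETS core shown, further into the gene.
TCP1 repeat: cgtttgaggcGAAGGTTCaacctcttcc
CCT2 repeat: ccggagcgaaGAAATTTCtagtgtggga
CCT4 repeat: cggcgccgctTTCTGGAAggtt
The E-box CACGTG, bound by MYC, was in no window of the 7 subunits and in 8.77% of all genes. CCAAT or its reverse was in 4 of the 7 (TCP1, CCT2, CCT3 and CCT8) and in 39.7% of all genes. CCT5 and CCT8 both held an ETS core and neither held a heat shock repeat. The part of any of these motifs in the falls was not tested.

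Of the factors described at these promoters, MYC, a transcription factor that drives growth genes, had 3692 and 3751 normalized counts without glucose, against 10227 and 9909 in Ctrl. It fell by 1.44 on the log2 scale (SE 0.05, adjusted p = 1.6e-08). HSF1, the main heat shock factor, had 1133 and 1560 without glucose, against 1480 and 1330 in Ctrl, so its groups overlapped (adjusted p = 0.68). HSF2, a second heat shock factor, had 2111 and 1905 without glucose, against 2548 and 2559 in Ctrl (-0.35 ± 0.07, adjusted p = 0.0016). The HSF2 call was lost without CTRL_7 (adjusted p = 0.081), without CTRL_8 (0.059) and with scaling to library totals (0.092). These are mRNA levels, and neither protein nor binding was measured.

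Genes that overlap a subunit were checked because the strand used in counting is not given in the sources used here, and reads of overlapping partners cannot then be told apart. ACAT2, a cholesterol pathway thiolase, overlaps the 3′ end of TCP1 and had 1005 and 926 normalized counts without glucose, against 3157 and 3253 in Ctrl (-1.73 ± 0.07). TSACC, inside CCT3, had 36.4 and 43.5 without glucose, against 34.7 and 41.5 in Ctrl, and was not called. The snoRNA genes SNORA20, in TCP1, and SNORA22B and SNORA15, in CCT6A, had at most 24.1 in any library and were not called. SNORA29, in TCP1, was at 0 in all libraries.

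Pseudogene copies of the subunits had low counts, except for those of CCT6A. Of 13 listed pseudogenes, 6 averaged 10 normalized counts or more. CCT6P1 had 334 and 295 without glucose, against 285 and 262 in Ctrl (log2 fold change 0.20 ± 0.11, adjusted p = 0.20). CCT6P3 had 202 and 178 without glucose, against 146 and 146 in Ctrl, and was called higher (0.38 ± 0.13, adjusted p = 0.039). That call was lost without CTRL_7 (0.23), CTRL_8 (0.23) or ONG_9 (0.11). Reads of near-identical copies can be divided between them, so CCT6A, CCT6P1 and CCT6P3 are uncertain as single genes. Together, CCT6P1 and CCT6P3 had 8.49% and 8.07% of the CCT6A reads without glucose, against 3.54% and 3.41% in Ctrl. With their reads added to CCT6A, the log2 ratio of the group means was -0.92, against -0.99 for CCT6A alone. Of the other pseudogenes, TCP1P1 (-1.59 ± 0.47, adjusted p = 0.022) and TCP1P3 (-1.35 ± 0.48, adjusted p = 0.049) were called lower, at no more than 26.8 in any library. TCP1P1 lost its call without CTRL_7 (0.19), CTRL_8 (0.096) or ONG_9 (0.060). TCP1P3 lost its call when any 1 library was left out, with adjusted p of 0.072 without CTRL_7, 0.45 without CTRL_8, 0.16 without ONG_9 and 0.082 without ONG_10, and also with edgeR, limma-voom, DESeq2 and library totals. CCT8P1 had 25.8 and 23.9 without glucose, against 31.9 and 49.5 in Ctrl (-0.66 ± 0.28, adjusted p = 0.094), and CCT5P1 had 9.10 and 12.6 without glucose, against 17.5 and 17.4 in Ctrl (-0.65 ± 0.36, adjusted p = 0.20).

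The paralogue CCT6B, a CCT6 gene known mainly from testis, had 75.8 and 61.7 normalized counts without glucose, against 39.8 and 45.5 in Ctrl. Both No glucose libraries were above both Ctrl libraries, in the opposite direction to CCT6A. The log2 fold change was 0.67 ± 0.21 (adjusted p = 0.026), and the call was lost when any 1 library was left out, with adjusted p of 0.21 without CTRL_7, 0.091 without CTRL_8, 0.10 without ONG_9 and 0.052 without ONG_10. CCT8L2 had at most 5.35 in any library and was not called.

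Prefoldin, which delivers unfolded actin and tubulin to TRiC, had 4 of its 6 subunit genes called lower, with a median of -0.41, beside 36.2% of all coding genes and 54.2% of well-expressed ones. PFDN6 had 399 and 411 normalized counts without glucose, against 821 and 860 in Ctrl (-1.05 ± 0.08, adjusted p = 1.9e-06). PFDN2 had 816 and 863 without glucose, against 1368 and 1281 in Ctrl (-0.66 ± 0.07). VBP1, the third prefoldin subunit, had 4271 and 4084 without glucose, against 6372 and 6252 in Ctrl (-0.60 ± 0.05). PFDN4 changed less, with -0.22 ± 0.06 (adjusted p = 0.016), and lost its call without CTRL_7 (0.24) or CTRL_8 (0.23) and with scaling to library totals or the upper quartile. PFDN1 (-0.10 ± 0.06, adjusted p = 0.25) and PFDN5 (0.00 ± 0.06) were not called; under library totals the sign of PFDN1 turned and PFDN5 was called higher, at 0.21. The phosducin-like cochaperones, which bind TRiC and modulate its cycle, gave 3 lower calls from 3 tested genes of 4, with a median of -0.48, beside the same shares of coding genes. They were PDCL3 (-0.59 ± 0.09), PDCL (-0.48 ± 0.06) and TXNDC9 (-0.24 ± 0.07), of which TXNDC9 lost its call without CTRL_7 (0.23) or CTRL_8 (0.21) and with library totals or the upper quartile. PDCL2 was at 0 in all libraries.

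Chaperonins outside TRiC did not all move the same way. The mitochondrial chaperonin HSPD1 had 26385 and 23871 normalized counts without glucose, against 37941 and 38266 in Ctrl (-0.60 ± 0.05). Its lid protein gene HSPE1 had 2003 and 1994 without glucose, against 3621 and 3617 in Ctrl (-0.86 ± 0.06). The chaperonin-like BBS genes work with TRiC in assembling the ciliary BBSome, and 2 of 3 were called higher. Higher calls made up 16.4% of all coding genes tested and 18.2% of well-expressed ones. BBS12 had 75.8 and 61.7 without glucose, against 30.2 and 32.1 in Ctrl (1.11 ± 0.22, adjusted p = 0.0018), and BBS10 had 1342 and 1302 without glucose, against 1005 and 987 in Ctrl (0.41 ± 0.07, adjusted p = 0.00064). MKKS, the third of them, had 625 and 613 without glucose, against 820 and 769 in Ctrl (-0.36 ± 0.08), a call lost without CTRL_7 (adjusted p = 0.14) and with library totals (0.13).

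**Figure D5:**
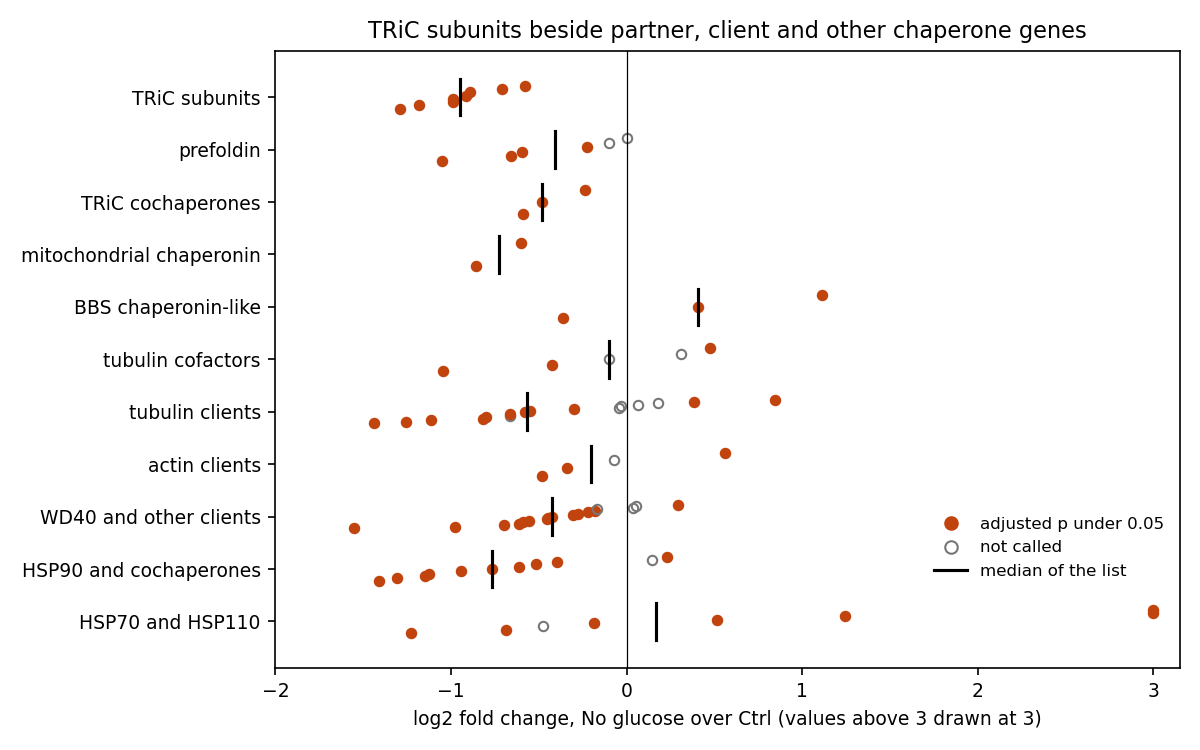
Log2 fold change, No glucose over Ctrl (horizontal axis), of every tested gene in the TRiC subunits and in lists of partners, clients and other chaperones; filled points passed the test, open points did not, and the bar is the list's median. The 8 subunits lie between -1.29 and -0.58, while the medians of the other lists run from -0.77 to 0.41; HSPA6 and HSPA1A lie beyond 3 and are drawn there.

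Among genes for TRiC's clients, 9 of 16 tubulins were called lower and 2 higher, with a median of -0.57. That share of lower calls is near the 54.2% of well-expressed coding genes, though above the 36.2% of all coding genes. TUBG1, the gamma-tubulin that nucleates microtubules, had 870 and 843 normalized counts without glucose, against 2386 and 2262 in Ctrl (-1.44 ± 0.07). TUBA1B had 9814 and 9945 without glucose, against 23784 and 23426 in Ctrl (-1.26 ± 0.05), while TUBA1A had 7507 and 7037 without glucose, against 5550 and 5609 in Ctrl (0.38 ± 0.05, adjusted p = 0.0002). TUBB6 had 209 and 244 without glucose, against 492 and 490 in Ctrl (-1.11 ± 0.11). TUBB3, at no more than 44.9, was called higher (0.85 ± 0.28, adjusted p = 0.039) but not without CTRL_7 (0.12), CTRL_8 (0.25) or ONG_10 (0.19), when 1 of the 16 genes was called higher. The tubulin genes are near-identical in part, so single members are uncertain. Of the 5 tubulin cofactors, which take tubulin on after TRiC, TBCB (-1.05 ± 0.07) and TBCA (-0.42 ± 0.06) fell and TBCC (0.47 ± 0.09) was higher. Of all coding genes tested, 36.2% were called lower and 16.4% higher. TBCD (-0.10 ± 0.07) and TBCE (0.31 ± 0.13) were not called, and the sign of TBCD and of the list's median, -0.10, turned under library totals.

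The actin genes differed in direction. ACTB had 94621 and 106316 normalized counts without glucose, against 143241 and 137440 in Ctrl (-0.48 ± 0.06), and ACTG1 had 120518 and 141769 without glucose, against 91691 and 85666 in Ctrl (0.56 ± 0.07). These genes are near-identical in their coding parts, so each is uncertain alone. The actin-related ACTR2 changed by -0.34 ± 0.05, a call lost without CTRL_7 (adjusted p = 0.076) or CTRL_8 (0.054), and ACTR3 was not called (-0.07 ± 0.05), with its sign turned under library totals and the upper quartile. The median of these 4 genes, -0.20, was 0.01 under library totals.

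Of 17 WD40-repeat and other clients, 13 were called lower and 1 higher, with a median of -0.43, beside lower calls in 36.2% of all coding genes and 54.2% of well-expressed ones. Without CTRL_7 only 7 were called lower, and 7 under library totals. GNB4, a G protein beta subunit, had 972 and 985 normalized counts without glucose, against 2831 and 2905 in Ctrl (-1.55 ± 0.06). CCNE1, cyclin E1, had 473 and 561 without glucose, against 970 and 1063 in Ctrl (-0.98 ± 0.10), and GNB5 changed by -0.70 ± 0.08. STAT3 was called higher (0.29 ± 0.05), but not without CTRL_7 (adjusted p = 0.094) or CTRL_8 (0.092).

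Other cytosolic chaperones included genes that moved with TRiC and genes that moved against it. Of 11 HSP90 and cochaperone genes, 9 were called lower and 1 higher, with a median of -0.77, where 54.2% of well-expressed coding genes were called lower. The deepest falls were those of FKBP4 (-1.41 ± 0.06), FKBP5 (-1.31 ± 0.06) and AHSA1 (-1.15 ± 0.05). HSP90AA1, the inducible HSP90, was called higher (0.23 ± 0.05, adjusted p = 0.0034), but not without CTRL_7 (0.26) or CTRL_8 (0.31) or with the upper quartile. Of 8 tested genes of 9 for HSP70 and HSP110, 4 were called higher and 3 lower, with a median of 0.16, and HSPA1B was at 0 in all libraries. Of all coding genes tested, 16.4% were called higher and 36.2% lower, and of well-expressed ones 18.2% and 54.2%. HSPA6 and HSPA1A had 0 reads in both Ctrl libraries; against a floor of 3 reads for that group as a whole, 0.820 normalized counts, HSPA6 was at least 3126-fold and HSPA1A at least 72.9-fold higher. HSPA1A and HSPA1B are near-identical, so either is uncertain alone. HSPH1, an HSP110, had 26193 and 24097 without glucose, against 10563 and 10631 in Ctrl (1.25 ± 0.05), whereas HSPA14 (-1.23 ± 0.06) and HSPA4 (-0.68 ± 0.06) fell. The third lower call, HSPA8 (-0.18 ± 0.05, adjusted p = 0.015), was lost without CTRL_7 (0.35) or CTRL_8 (0.39), and its sign turned under library totals.

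The genes whose values over the 4 libraries were nearest to the mean profile of the subunits, by distance between centred log2 values, were picked from 5917 well-expressed coding genes outside the lists. They were GEMIN5, an RNA-binding protein of the SMN complex (distance 0.0110), the centromere gene CENPU (0.0116), the lysosomal lipase LIPA (0.0119), the 14-3-3 protein YWHAQ (0.0145) and the centromere gene CENPH (0.0175). Their log2 fold changes ran from -0.95 to -0.93. GEMIN5 had 2083 and 1932 normalized counts without glucose, against 3862 and 3851 in Ctrl. The subunits themselves lay 0.0432 (CCT2) to 0.364 (CCT8) from their own mean profile, with 31 to 1117 of the 5917 genes nearer to it than the subunit was. With 4 libraries in 2 groups, this likeness mostly describes the size of the difference between the groups.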

How the data were processed

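Total RNA of 4 libraries (2 No glucose, 2 Ctrl) was sequenced. Reads were processed with STAR 2.6.0c, RSEM 1.3.0 and DESeq2 1.18.1 on hg38, per the submitters' processing notes; the annotation release and counting strand are not given in the sources used here. The signal values are normalized counts that the authors deposited, 1 per gene and library. The deposited log2 values are the authors' fold changes and standard errors. The score values are that comparison's test statistics, as deposited. Its p-values, raw and adjusted, are also those the authors deposited. These statistics are quoted only where named as the authors' deposited table.

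Dividing each library by its smallest step brought 100% of the nonzero values to within 0.01 of a whole read, with size factors of 0.660 and 0.713 for ONG_9 and ONG_10 and 2.91 and 0.748 for CTRL_7 and CTRL_8. These recovered reads may be rounded RSEM estimates. Columns were assigned to groups by name, and ONG was read as No glucose since CTRL and ONG are the only names present. Of 60609 identifiers in 60868 entries, 58457 are in GENCODE 29, the source of coordinates and lengths. The test was limma 3.58.1 (trend, two-sided, R 4.3.3) for genes that averaged 1 normalized count or more, on log2(normalized count + 1), which understates the change of low genes, with Benjamini-Hochberg adjustment over all genes tested. Intervals are 95% intervals of that fit, and the floor for genes at 0 covers counting error only. A gene's spread is fitted as equal in both groups, although the No glucose libraries differed more. That spread is also drawn towards the spread of other genes of similar level.

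Alternatives used edgeR 4.0.16, limma-voom and DESeq2 1.42.0 on the recovered reads, or changed the scaling, the filter and the pseudocount, and omitted each library in turn. The test was checked for recovery of known changes on simulated libraries with the same spread in both groups. That setting lacks the wider spread of the real No glucose libraries, so it does not gauge false calls in these data. The subunits and lists were chosen with earlier results of these data known. Named were all 8 subunits, the tested members of short lists, up to 3 called members in each direction of longer lists, genes within or beside a subunit gene, pseudogenes with a mean of at least 10, and the 5 genes of most similar profile.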

Additional observations from a re-analysis of the deposited data

How the results depend on the processing

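Over 18 alternatives, 142 of 144 subunit fold changes kept their direction and their call, none reversed, and they ran from -1.35 to -0.37. The exceptions were CCT8 without CTRL_7 (adjusted p = 0.056) and without CTRL_8 (0.054) when the tested genes were still chosen on all 4 libraries, an alternative chosen after seeing the data. The subunit median, -0.95, was -0.74 with library totals and -0.87 with the upper quartile, and -1.01 to -0.89 when a library was left out. Lower calls over all genes, 5695, ran from 3318 to 6387 with a library left out, and from 1573 (without CTRL_7) and 1691 (without CTRL_8) to 5708 with genes chosen on all 4. Higher calls, 3948, were 2480 among coding genes alone, 6109 with library totals and 2436 with DESeq2, ran from 2027 to 4172 with a library left out, and from 635 (without CTRL_8) and 726 (without CTRL_7) to 3024 with genes chosen on all 4. Lower prefoldin calls, 4, ran from 2 to 4 with a library left out, and 1 prefoldin gene was higher with library totals. Lower tubulin calls, 9, ran from 5 to 9 with a library left out; higher ones, 2, were 1 with no filter and 1 with DESeq2, and ran from 0 to 3 with a library left out. With genes chosen on all 4 libraries and CTRL_7 or CTRL_8 left out, the calls of all cochaperone, BBS and actin genes were lost. Some calls were then also lost among the mitochondrial chaperonin, the tubulin cofactors, the WD40 and other clients, and the HSP70 and HSP90 genes. The ratio of highest to lowest subunit level in Ctrl, 2.27, was 2.80 with the longest transcript and 2.14 with coding length. The cause of these shifts was not tested. With 1 library left in a group, its spread is assumed to be like that of the other. No paired analysis was possible because the columns carry no replicate numbers of the labels, so the replicate block was not run. For genes with few reads, depth limits the test: 1 read is worth 1.52 and 1.40 normalized counts in the No glucose libraries and 0.343 and 1.34 in Ctrl.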
